A study of Mus musculus with 12 samples.

Results

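The 9 genes described here make, carry, bind, sense or clear retinoic acid: *Rbp4*, *Stra6*, *Dhrs3*, *Aldh1a1*, *Aldh1a2*, *Aldh1a3*, *Crabp1*, *Rarb* and *Cyp26b1*. They are 9 of the 52550 genes in the deposited count table. The set was selected on the fold change of *Crabp1* after lipopolysaccharide (LPS) in wild-type (WT) mice, one of the deepest falls there, and its other genes were added by name for their place in the pathway. LPS is the endotoxin of Gram-negative bacteria, and given to newborn mice it produces a model of bronchopulmonary dysplasia, the chronic lung disease of preterm infants. Whole lungs of C57Bl/6J mice on postnatal day 5 were sequenced as bulk RNA in 12 libraries. WT mice given phosphate-buffered saline (PBS), WT mice given LPS, *Adm*+/- mice given PBS and *Adm*+/- mice given LPS made up 4 groups of 3 libraries each. LPS of *E. coli* O55:B5 was injected into the peritoneum at 6 mg/kg once a day from postnatal day 3, with the lungs removed 6 h after the final injection. *Adm* encodes adrenomedullin, a vasodilator and vascular survival peptide. *Adm*+/- mice keep one working copy in every cell, since loss of both copies is lethal before birth. Libraries are called by their number in the labels.

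Retinoic acid is the active form of vitamin A. Retinol travels in blood on a carrier protein, enters cells and is oxidised first to retinaldehyde and then, by retinaldehyde dehydrogenases, to retinoic acid, which binds nuclear receptors that sit on DNA as partners of retinoid X receptors. Enzymes of the CYP26 family remove it, so that the amount a cell senses depends on the balance of synthesis, binding and clearance, and in the newborn lung this signal is known to take part in the formation of alveoli.

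In *Adm*+/- mice, LPS exposure up-regulated *Stra6*, *Aldh1a3* and *Aldh1a1* and down-regulated *Crabp1*, *Cyp26b1* and *Rarb*, so that 6 of 9 genes passed the test of an adjusted p below 0.05 and a log2 fold change beyond 0.5 (edgeR quasi-likelihood test, Benjamini-Hochberg adjustment). Of 15885 protein-coding genes tested in the same comparison, 25.0% passed, 12.8% higher and 12.2% lower. Libraries with LPS and with PBS did not overlap for 7 of 9 genes, against 53.7% of all genes. *Rbp4*, *Aldh1a2* and *Dhrs3* did not pass. In WT mice the same thresholds were met by *Aldh1a3* (higher), *Crabp1* and *Cyp26b1* (lower), 3 of 9 genes against 17.6% of all genes (10.5% higher, 7.09% lower), and 4 of 9 did not overlap, against 36.2% of all genes. The choice of *Crabp1* used this WT comparison, so the WT values are given as a description only. Between the genotypes under LPS, *Stra6* was higher and *Rarb* lower in *Adm*+/- mice, 2 of 9 genes against 2.05% of all genes, and each call was lost in 10 of 12 fits that left out 1 library.

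Retinoic acid receptors bind DNA at paired half-sites, so promoter windows were searched for such pairs, and the sequences of *Rarb* and *Cyp26a1*, which held one, and of *Crabp1* and *Cyp26b1*, which bind and clear retinoic acid, are shown. Promoter windows of 250 bases before to 50 bases after each RefSeq start (GRCm38.p6) were given for 8 of 9 genes, all but *Aldh1a3*, 15 windows in all. They were searched on both strands for a retinoic acid response element written as 2 half-sites (AGGTCA or AGTTCA or GGGTCA or GGTTCA) set apart by any 5 bases. Among the 8 genes searched, *Rarb* alone held one, 53 to 37 bases before a RefSeq start, and 0.0974% of 32851 windows of the same length held one. Of 46 other genes of the pathway with a window, 1 held it, *Cyp26a1*, another enzyme of the CYP26 family. The half-sites are in capitals, and the stretch of *Rarb* also lies in an exon of 2 annotated transcripts.
Rarb, chr14:16575507-16575535, minus strand: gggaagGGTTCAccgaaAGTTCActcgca
Cyp26a1, chr19:37697770-37697798, minus strand: caaattAGTTCAcccaaAGTTCAtcttta
The same half-sites set apart by any 2 bases or by any single base were found in none of the 15 windows, and occurred in 0.268% and 0.222% of all windows. *Crabp1* and *Cyp26b1*, which were lower after LPS, are shown by the sequence that precedes their transcripts. Capitals mark GGGCGG or its reverse complement CCGCCC, found in 35.7% of all windows, and, in *Cyp26b1*, a TATAAA box, found in 13.6%, and a match to the NF-kB consensus, found in 4.51%.
Crabp1, chr9:54764498-54764747, plus strand: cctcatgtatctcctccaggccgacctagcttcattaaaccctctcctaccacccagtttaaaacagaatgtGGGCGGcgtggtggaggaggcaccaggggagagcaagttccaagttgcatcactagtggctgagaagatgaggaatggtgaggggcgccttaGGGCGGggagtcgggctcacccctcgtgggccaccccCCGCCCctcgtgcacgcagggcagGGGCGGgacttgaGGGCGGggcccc
Cyp26b1, chr6:84593909-84594060, minus strand: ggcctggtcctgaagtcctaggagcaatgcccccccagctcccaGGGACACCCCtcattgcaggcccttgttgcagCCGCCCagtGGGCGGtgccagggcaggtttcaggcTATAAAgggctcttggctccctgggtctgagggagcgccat
No half-site pair was among the letters of either stretch. A match is a description of the letters in these windows, and binding was not measured.

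Total counts ranged from 22382535 to 38062873 per library. *Adm* itself stood at 3.96, 7.09 and 4.57 CPM, counts scaled to the library size, in WT PBS and at 4.58, 2.87 and 3.62 in *Adm*+/- PBS, a log2 difference of -0.50 (SE 0.32, edgeR adjusted p = 0.999), and at -0.55 under LPS (SE 0.31, edgeR adjusted p = 0.480). WT PBS library 5 and *Adm*+/- PBS library 6 had the smallest shares of counts in protein-coding genes, 77.8% and 80.1% against 84.3% to 87.6% elsewhere. They also had the highest summed levels of 10 fibroblast markers, 32790.4 and 22717 CPM, against at most 13442 CPM in the other PBS libraries. All WT LPS libraries carried skeletal muscle transcripts (8 markers, summed 400.4 to 1254 CPM, against 13.1 to 28.7 CPM in *Adm*+/- LPS), and WT LPS libraries 9 and 11 carried transcripts of squamous epithelium (7 markers, 2920.1 and 1499 CPM, against 24.9 CPM in library 10). In tissue lysed whole, fewer cells of a type and less RNA per cell cannot be told apart.

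Per length, the 9 genes spanned a wide range in these lungs. *Aldh1a1* and *Dhrs3* were the most abundant, at 29.7 and 25.3 RPKM (CPM divided by exon length in kilobases) as the mean of 12 libraries, and their ranges overlapped. *Cyp26b1* (7.50 RPKM), *Aldh1a2* (4.74 RPKM), *Rbp4* (3.45 RPKM) and *Crabp1* (2.22 RPKM) followed, each with a range over libraries that overlapped the next. *Aldh1a3* (1.62 RPKM), *Rarb* (1.21 RPKM) and *Stra6* (0.422 RPKM) had the lowest means, and the range of *Stra6*, 0.250 to 0.789 RPKM, also overlapped that of *Rarb*. This order is over all 12 libraries and shifted with the group. *Aldh1a3* had a lower mean than *Rarb* with PBS (0.900 against 1.47 RPKM in WT, 0.563 against 1.34 RPKM in *Adm*+/-) and a higher one with LPS (2.84 against 1.31 RPKM in WT, 2.18 against 0.730 RPKM in *Adm*+/-). In *Adm*+/- LPS *Stra6* and *Rarb* were level, at 0.730 RPKM each. For *Crabp1* the mean was 3.64 and 4.15 RPKM in WT and *Adm*+/- PBS and 0.322 and 0.785 RPKM in WT and *Adm*+/- LPS, in WT LPS below that of *Stra6* (0.362 RPKM).

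**Figure D1:**
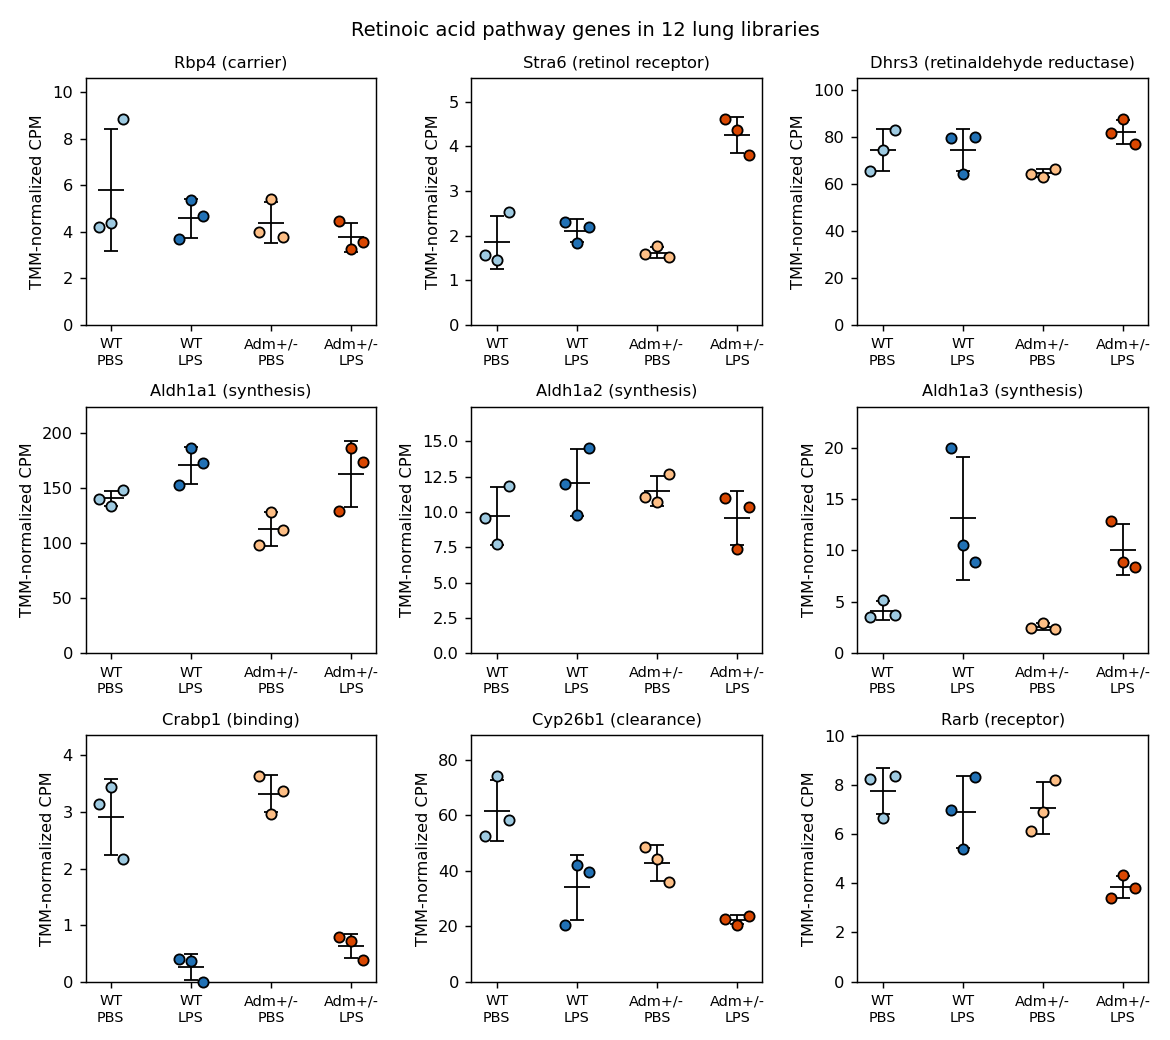
CPM (TMM-normalized, vertical axes starting at 0, a scale of its own for each gene) of the 9 genes in the 3 libraries of each group. Points are libraries in the order of their numbers, and bars give the mean and SD. *Crabp1* sits at 2.16 to 3.63 CPM in the PBS libraries and at most at 0.785 CPM after LPS in both genotypes, while *Stra6* reaches 3.81 CPM or more only in *Adm*+/- LPS.

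Carriage and uptake of retinol are represented by *Rbp4*, the carrier in blood, and *Stra6*, the membrane receptor that takes retinol from it. *Rbp4* (chr19:38116629-38125281, minus strand) showed 3.998, 5.41 and 3.78 CPM in *Adm*+/- PBS and 4.45, 3.27 and 3.56 CPM in *Adm*+/- LPS. The groups overlapped, and the log2 difference of -0.23 had a 95% interval from -0.87 to 0.41 (edgeR adjusted p = 0.593). Its highest value, 8.83 CPM, was in WT PBS library 5, against 4.19 and 4.37 CPM in the other WT PBS libraries. That library also held the highest sum of 5 fat markers, 36.9 CPM against 6.52 and 2.62 CPM in its group, and the part of fat in the *Rbp4* value was not tested. In WT LPS, *Rbp4* stood at 3.70, 5.36 and 4.70 CPM.

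*Stra6* (chr9:58063788-58153996, plus strand) was nearly equal in the *Adm*+/- PBS libraries, at 1.58, 1.76 and 1.51 CPM, and reached 4.60, 4.36 and 3.81 CPM in *Adm*+/- LPS. Every LPS library lay above every PBS library. The rise was 2.62-fold (log2 1.39, SE 0.23, edgeR adjusted p = 0.000971). WT libraries gave 1.55, 1.46 and 2.53 CPM with PBS and 2.31, 1.83 and 2.19 CPM with LPS, which overlap (log2 0.21). *Stra6* overlaps *Ccdc33* on the opposite strand, which stood at 0.526 to 1.69 CPM in *Adm*+/- PBS and 1.65 to 2.89 CPM in *Adm*+/- LPS, and a non-coding gene on its own strand. Since no source states whether counting used the strand, reads from overlapping genes may not be told apart.

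*Dhrs3* (chr4:144892827-144928209, plus strand), which reduces retinaldehyde back to retinol and so limits synthesis, stood at 64.2, 63.1 and 66.5 CPM in *Adm*+/- PBS and at 81.8, 87.4 and 77.1 CPM in *Adm*+/- LPS. The groups did not overlap. The log2 difference of 0.35 (SE 0.11) had an edgeR adjusted p of 0.0398 but lay under the fold threshold, so the gene did not pass. In WT the values were 65.6, 74.5 and 83.1 CPM with PBS and 79.7, 64.3 and 79.9 CPM with LPS, which overlap.

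The 3 retinaldehyde dehydrogenases, which make retinoic acid, did not move alike. *Aldh1a3* (chr7:66390890-66427517, minus strand) stood at 2.47, 2.94 and 2.39 CPM in *Adm*+/- PBS and at 12.9, 8.84 and 8.41 CPM in *Adm*+/- LPS. The rise, in 3 of 3 libraries above all PBS libraries, was 3.85-fold (log2 1.95, SE 0.31, edgeR adjusted p = 0.000894). WT libraries gave 3.57, 5.19 and 3.71 CPM with PBS and 20.0, 10.6 and 8.84 CPM with LPS, also without overlap (log2 1.66, and 1.34 without libraries 9 and 11). The highest of these, 20.0 CPM, was in library 9, which had the highest squamous sum. In *Adm*+/- LPS the highest library, library 1 at 12.9 CPM, also had the highest squamous sum of its group, 39.9 CPM against 10.2 and 4.35 CPM. WT LPS library 11, with 1499 CPM of squamous markers, had the lowest *Aldh1a3* of its group. Library 10, with 24.9 CPM of them, was above it. Library 9 also had the highest neutrophil and monocyte and macrophage sums of its group, 2339.9 and 694 CPM. Library 1 had the lowest neutrophil sum of its group, 1390.4 CPM, and the highest monocyte and macrophage sum, 506 CPM. The part of squamous epithelium and of these other cells in these values was not tested.

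*Aldh1a1* (chr19:20492715-20643465, plus strand) stood at 98.1, 128 and 112 CPM in *Adm*+/- PBS and at 129, 186 and 173 CPM in *Adm*+/- LPS. The lowest LPS library was just above the highest PBS library. The rise was 1.44-fold (log2 0.53, SE 0.15, edgeR adjusted p = 0.0172), close to the fold threshold. Without *Adm*+/- PBS library 6, PBS library 8, LPS library 2 or LPS library 12 it no longer passed, with edgeR adjusted p of up to 0.0744, and without both PBS libraries that stood apart it was 0.44, under the fold threshold. In WT, 140.1, 134 and 148 CPM with PBS stood against 152, 186 and 172 CPM with LPS, a log2 difference of 0.28. Its near copy *Aldh1a7*, with which it shares 3.06% of its transcript words of 50 bases, showed a log2 difference of 0.08 in *Adm*+/- (edgeR adjusted p = 0.534).

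*Aldh1a2* (chr9:71215789-71296243, plus strand) gave 11.05, 10.7 and 12.7 CPM in *Adm*+/- PBS and 10.995, 7.42 and 10.3 CPM in *Adm*+/- LPS. The groups overlapped, and the log2 difference of -0.26 had a 95% interval from -0.72 to 0.19 (edgeR adjusted p = 0.369). In WT it was 9.59, 7.72 and 11.9 CPM with PBS and 12.0, 9.77 and 14.5 CPM with LPS.

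Taken per length, *Aldh1a1* supplied most of the message of the 3 dehydrogenases in every library, 76.3% to 87.9% of their summed RPKM. *Aldh1a3* supplied 1.80% to 2.12% in *Adm*+/- PBS and 4.39% to 8.28% in *Adm*+/- LPS, and 2.23% to 3.56% and 4.43% to 10.7% in the WT groups. Its share was thus higher with LPS than with PBS in both genotypes without overlap, and remained a small part of the total. *Aldh1a2* supplied 15.1% to 19.5% in *Adm*+/- PBS and 7.64% to 14.4% in *Adm*+/- LPS. In WT it supplied 10.8% to 14.6% with PBS and 9.74% to 14.8% with LPS, which overlap.

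**Figure D2:**
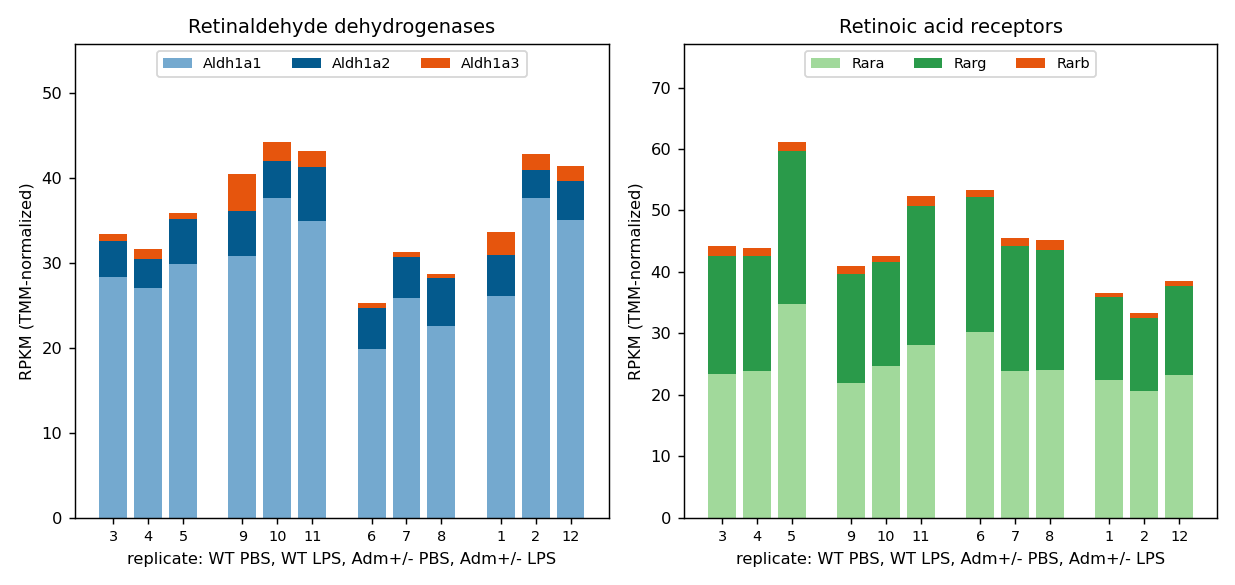
Stacked bars of TMM-normalized RPKM (vertical axes starting at 0) in each of the 12 libraries, for the 3 retinaldehyde dehydrogenases (left) and the 3 retinoic acid receptors (right). *Aldh1a1* fills at least 76.3% of the left bars, and *Rarb* is at most 3.54% of the right bars.

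*Crabp1* (chr9:54764748-54773110, plus strand) encodes a cytosolic protein that binds retinoic acid, and is a marker of mesenchymal cells in several organs. In WT it was counted 81, 71 and 35 times with PBS and 13, 9 and 0 times with LPS, or 3.15, 3.45 and 2.16 CPM against 0.401, 0.374 and 0 CPM. In library 11, with 0 counts, 3 counts would have been 0.119 CPM. The log2 difference was -3.44, and 2 of 15885 tested genes had a lower one. This is the fall for which the gene was chosen. In *Adm*+/- mice, which that choice did not use, it was counted 69, 88 and 85 times with PBS and 21, 17 and 11 times with LPS, or 3.63, 2.97 and 3.38 CPM against 0.785, 0.712 and 0.392 CPM. Every LPS library was below every PBS library. The gene was down-regulated 5.26-fold (log2 -2.40, SE 0.50, edgeR adjusted p = 0.00431), and 48 of 15885 genes had a lower log2 fold change. No word of 50 bases of its transcripts occurred in those of another gene.

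*Cyp26b1* (chr6:84571414-84593908, minus strand), an enzyme of the CYP26 family that clears retinoic acid, stood at 48.3, 44.2 and 35.8 CPM in *Adm*+/- PBS and at 22.6, 20.5 and 23.8 CPM in *Adm*+/- LPS. All LPS libraries were lower than all PBS libraries. The fall was 1.92-fold (log2 -0.94, SE 0.24, edgeR adjusted p = 0.0117). WT libraries gave 52.5, 73.9 and 58.4 CPM with PBS and 20.4, 42.1 and 39.4 CPM with LPS, a log2 difference of -0.86 without overlap. The lowest of these was again library 9, and without libraries 9 and 11 the log2 difference was -0.55. Without WT PBS library 4, *Cyp26b1* no longer met the thresholds in WT. *Cyp26a1* was counted at most 7 times in any library and was not tested.

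*Rarb* (chr14:16430839-16819156, minus strand) encodes retinoic acid receptor beta, which is both a receptor for retinoic acid and a textbook target of it, and whose window held the paired half-sites. It stood at 6.10, 6.89 and 8.19 CPM in *Adm*+/- PBS and at 3.40, 4.32 and 3.81 CPM in *Adm*+/- LPS, without overlap. The fall was 1.84-fold (log2 -0.88, SE 0.19, edgeR adjusted p = 0.00573). WT libraries overlapped, at 8.23, 6.65 and 8.34 CPM with PBS and 6.96, 5.41 and 8.32 CPM with LPS (log2 -0.17). *Rarb* overlaps *Top2b* on the opposite strand, and 34.1% of its transcript words of 50 bases also occur in transcripts of *Top2b* or of the non-coding gene *Gm48162*. *Top2b* was at 284 to 330.2 CPM in *Adm*+/- PBS and 262 to 277 CPM in *Adm*+/- LPS (log2 -0.23, edgeR adjusted p = 0.0932), and its part in the *Rarb* counts was not tested. Among the 3 receptors per length, *Rarb* made up 2.17% to 3.45% in *Adm*+/- PBS and 1.77% to 2.46% in *Adm*+/- LPS, ranges that overlap.

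Markers of other cells moved in the same comparison, in which 12.8% of all genes rose, 12.2% fell and 53.7% did not overlap. In *Adm*+/- mice all 8 neutrophil markers rose, from sums of 31.1 to 52.8 CPM with PBS to 1390.4 to 1656 CPM with LPS, and 7 of 8 monocyte and macrophage markers rose, from 197 to 225 CPM to 410.1 to 506 CPM. Of 10 fibroblast markers 3 fell, the summed level being 12797 to 22717 CPM with PBS and 9964 to 11397 CPM with LPS. Most of that sum was *Col1a1* and *Col1a2*, which did not pass (log2 -0.82 and -0.70), and the markers that fell were *Tcf21*, *Meox2* and *Fgf10*. *Pdgfra* (log2 0.44) and *Dcn* (log2 0.79) had higher means with LPS and did not pass. Of 5 lipofibroblast markers 2 rose and 1 fell, with sums of 225 to 250.3 CPM with PBS and 299 to 362 CPM with LPS. Of 5 airway epithelial markers none passed, while their sum was 1081 to 1920.1 CPM with PBS and 2430.1 to 2783 CPM with LPS. Of 6 type II and 5 type I pneumocyte markers 2 each rose, and of 7 mesothelial markers 1 rose. Of 6 tested squamous markers none passed, while their libraries did not overlap for 6 of 6 and the sum over the list was 0.875 to 1.16 CPM with PBS and 4.35 to 39.9 CPM with LPS. Of 8 skeletal muscle markers 1 rose, *Acta1*, with sums of 5.73 to 9.19 CPM and 13.1 to 28.7 CPM. Of 6 endothelial markers 2 fell (2333 to 2521 CPM against 1949 to 2211 CPM). Of 7 smooth muscle and pericyte markers none passed, and 4 did not overlap. Their sum was 1696 to 2107 CPM with PBS and 1352 to 1581 CPM with LPS. No neutrophil or fibroblast marker was at 0 throughout a group. The part of these shifts in the 9 genes' values was not tested.

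The effect of LPS differed between the genotypes for 0 of 9 genes (edgeR quasi-likelihood test of the interaction, which contains the WT comparison, and 0 of 9 with DESeq2 and with limma-voom), where 0.145% of all genes passed. At an unadjusted p below 0.05 stood 2 of the 9, and 1247 of all 15885 genes tested. The LPS effect on *Stra6* was 1.18 higher in *Adm*+/- on the log2 scale (SE 0.32, 95% interval 0.47 to 1.89, edgeR adjusted p = 0.328), and that on *Rarb* differed by -0.71 (SE 0.27, 95% interval -1.31 to -0.12, edgeR adjusted p = 0.513). For *Crabp1* the difference of 1.05 rests on the WT fall for which the gene was chosen and is given as a description. For *Aldh1a2*, with opposite signs in the genotypes, the difference of -0.58 had a 95% interval from -1.22 to 0.06. A larger fall or rise in one genotype was not shown for the other 8 genes.

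**Figure D3:**
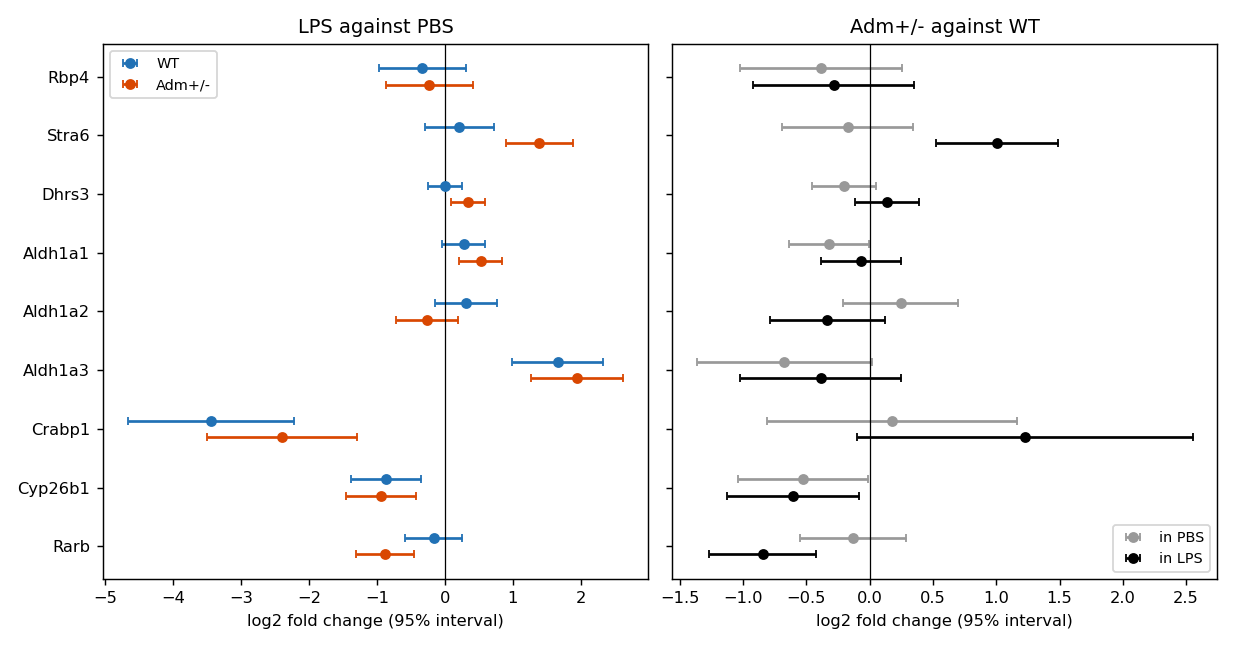
Log2 fold changes of the 9 genes with 95% intervals (horizontal axes), for LPS against PBS in each genotype (left) and for *Adm*+/- against WT in PBS and in LPS (right). *Stra6* lies at 1.39 in *Adm*+/- and 0.21 in WT on the left and at 1.01 under LPS on the right, and *Crabp1* lies furthest below 0 in both genotypes.

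With PBS, the genotypes differed in 0 of 9 genes and in 0% of all genes (edgeR, all 9 adjusted p = 0.999, and 0 of 9 with DESeq2 and with limma-voom). Of all 15885 genes tested, 344 stood at an unadjusted p below 0.05. Among the 9 genes these were *Aldh1a1* (log2 -0.32) and *Cyp26b1* (log2 -0.53). These and *Aldh1a3* (log2 -0.67) were lower in every *Adm*+/- PBS library than in every WT PBS library, 3 of 9 genes without overlap against 4.99% of all genes. *Aldh1a1*, for example, was at 98.1 to 128 CPM in *Adm*+/- and 134 to 148 CPM in WT.

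Under LPS, 2 of 9 genes differed between the genotypes, where 2.05% of all genes did (0.327% higher, 1.72% lower). The same 2 did not overlap between the genotypes, against 24.6% of all genes. *Stra6* was 2.01-fold higher in *Adm*+/- (4.26 ± 0.403 against 2.11 ± 0.251 CPM, SD, n = 3 each). Its log2 difference was 1.01 (SE 0.22, edgeR adjusted p = 0.0416). *Rarb* was 1.80-fold lower (3.84 ± 0.457 against 6.90 ± 1.46 CPM, SD, n = 3 each), with a log2 difference of -0.84 (SE 0.19, edgeR adjusted p = 0.0496). Both calls were close to the threshold, and each was lost in 10 of 12 fits that left out 1 library, with edgeR adjusted p of up to 0.166 for *Stra6* and 0.200 for *Rarb*. All 8 skeletal muscle markers and 3 of 6 tested squamous markers were lower in *Adm*+/- LPS than in WT LPS. Without WT LPS libraries 9 and 11, which leaves 1 WT LPS library whose spread is taken to be that of the other groups, the log2 difference was 1.22 for *Stra6* (edgeR adjusted p = 0.277) and -0.49 for *Rarb* (edgeR adjusted p = 0.877). Library 10, which was kept, held 1155 CPM of the skeletal muscle markers. The part of muscle and of squamous epithelium in these differences was not tested. *Crabp1*, whose WT LPS values were used to choose it, differed by 1.23 on the log2 scale, which is given as a description. *Cyp26b1* (log2 -0.61, edgeR adjusted p = 0.251) did not pass, but without WT LPS library 9 it did (log2 -0.87, edgeR adjusted p = 0.0256).

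A list of 67 further genes of the pathway placed the 9 in context. Of these, 55 passed the filter on low counts, and in *Adm*+/- mice 11 rose and 11 fell after LPS, 22 of 55, with a median log2 fold change of 0.00 against -0.01 over all genes, of which 12.8% rose and 12.2% fell. In WT 10 were higher and 5 lower, where 10.5% and 7.09% of all genes were. In storage and transport, *Lpl*, the lipase that frees retinol esters from lipoproteins, rose (log2 0.95, SE 0.14, edgeR adjusted p = 0.000627), as did *Scarb1*, *Lrp2* and *Stra6l*. *Lrat*, which stores retinol as esters, showed 0.07 (edgeR adjusted p = 0.918).

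Among 12 tested oxidoreductases, 3 rose and 1 fell in *Adm*+/-, where 12.8% of all genes rose and 12.2% fell. *Rdh12*, a retinaldehyde reductase, went from 0.676 to 0.947 CPM with PBS to 5.16 to 6.66 CPM with LPS (log2 2.88, SE 0.31, edgeR adjusted p = 0.000102). *Dhrs9*, a retinol dehydrogenase, rose by 3.45 and *Rdh1* by 2.07 on the log2 scale, both from few counts. Per library, *Dhrs9* had 4 to 16 counts with PBS and 86 to 148 with LPS. *Rdh1*, which overlaps *Rdh16f1* on the same strand, had 1 to 7 counts with PBS and 13 to 28 with LPS. *Adh1*, a cytosolic alcohol dehydrogenase that also oxidises retinol, fell from 432 to 439 CPM to 111 to 129 CPM (log2 -1.85, SE 0.22, edgeR adjusted p = 0.000143). *Rdh10*, the main retinol dehydrogenase of the embryo, showed -0.17 (edgeR adjusted p = 0.344).

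The binding proteins went in opposite directions. While *Crabp1* fell, *Crabp2*, which hands retinoic acid to its receptors, rose (log2 1.73, SE 0.51, edgeR adjusted p = 0.0239) at low levels, from 0.101 to 0.210 CPM to 0.377 to 0.524 CPM. *Fabp5*, a fatty acid carrier that also binds retinoic acid, rose from a mean of 36.3 to 70.2 CPM (log2 0.95, SE 0.10, edgeR adjusted p = 9.2e-05). In clearance, *Cyp2s1* showed 0.30 (edgeR adjusted p = 0.164), and neither of 2 tested genes passed.

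Of 5 further nuclear receptors 2 fell, where 12.2% of all genes fell and 12.8% rose. *Rxrg*, a retinoid X receptor, went from 1.16 to 1.93 CPM to 0.249 to 0.419 CPM (log2 -2.07, SE 0.45, edgeR adjusted p = 0.00530). Under LPS *Rxrg* was also lower than in WT (log2 -1.999, SE 0.45, edgeR adjusted p = 0.0458), a call lost without *Adm*+/- LPS library 1. *Rarg* fell by 0.65 on the log2 scale (SE 0.14, edgeR adjusted p = 0.00584). *Rara* (-0.23) and *Rxra* (-0.19) did not pass. Of 6 coregulators, *Nrip1*, a corepressor, rose (log2 0.74, SE 0.14, edgeR adjusted p = 0.00217).

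Of 16 tested genes listed as targets of retinoic acid, 1 rose and 7 fell in *Adm*+/-, with a median log2 fold change of -0.45, where 12.8% of all genes rose and 12.2% fell. The gene that rose was *Tgm2*, a transglutaminase, from 109 to 137 CPM to 379 to 404 CPM (log2 1.66, SE 0.16, edgeR adjusted p = 7.4e-05). Among those that fell were the homeobox genes *Hoxa2*, *Hoxa3*, *Hoxa4*, *Hoxa5* and *Hoxb5*, which set position along the body axis, and *Hic1*, a transcriptional repressor of mesenchymal cells. *Hoxa5* went from 54.2 to 66.8 CPM to 31.0 to 36.2 CPM (log2 -0.85). In WT, 3 targets were higher and 3 lower, beside 10.5% and 7.09% of all genes. None of the 55 tested genes differed between the genotypes in its response by edgeR, and 1 did by DESeq2. Under LPS 2 of the 55 were lower in *Adm*+/- than in WT, *Rxrg* among them, where 1.72% of all genes were lower. Both calls were lost without *Adm*+/- LPS library 1.

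**Figure D4:**
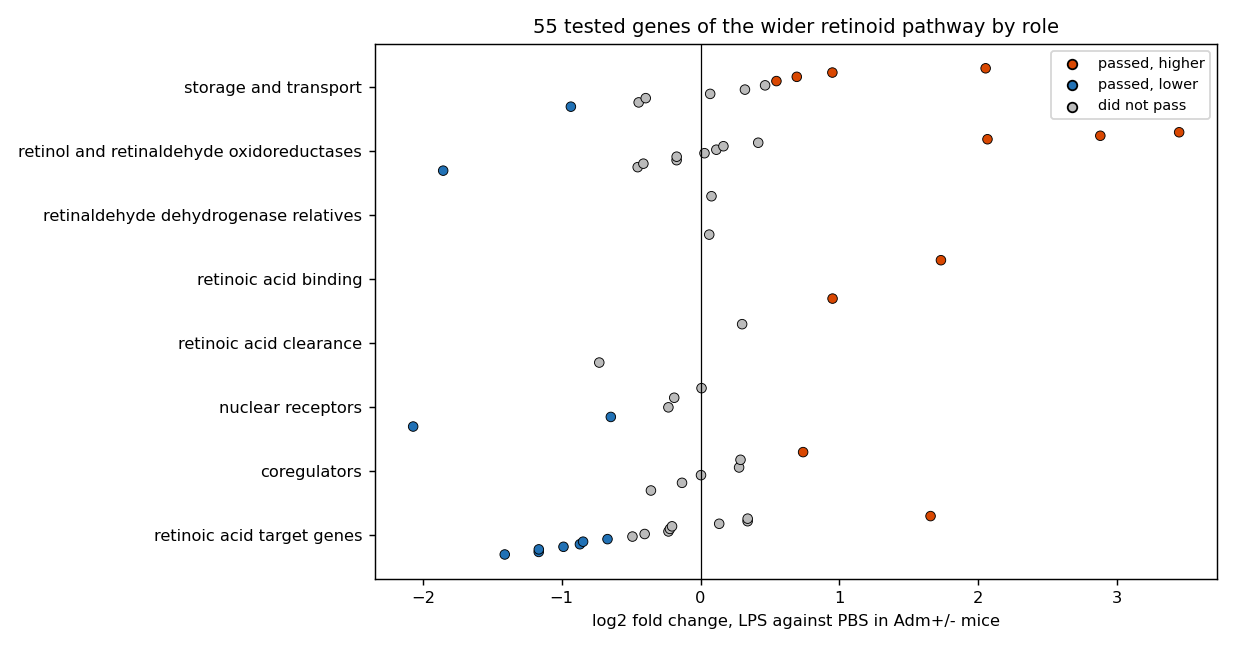
Log2 fold change after LPS in *Adm*+/- mice (horizontal axis) of the 55 tested genes of the wider pathway, in 1 row per role. Orange and blue points passed the test and are higher or lower with LPS, and grey points did not pass. In the row of target genes 7 points passed on the lower side and 1 on the higher side.

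For each of the 9, the gene most like it over the 12 libraries was named by Pearson's r of log2 CPM over all tested genes, without regard to function. The libraries share 4 groups and 2 exposures, and r within groups was not computed. For *Crabp1* the closest were *Havcr1* (r = 0.968), *Ints7* (0.948), *Frem1* (0.942), *Rasgrp3* (0.940) and *Dync1i2* (0.938). For *Cyp26b1* it was *Pcdhac2* (0.980), for *Aldh1a3* *Ctsl* (0.979), for *Stra6* *Inhbb* (0.969) and for *Rarb* *Fam221a* (0.966). *Aldh1a1* came closest to *Wfdc2* (0.916), *Rbp4* to *Gpd1* (0.909), *Dhrs3* to *Zfp954* (0.896) and *Aldh1a2* to *Gria2* (0.883).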

How the data were processed

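Total RNA of whole mouse lung was sequenced in 12 libraries, 3 in each of 4 groups given by the labels. The authors trimmed reads (Trim Galore), aligned them to mm10 (HISAT2) and counted them per Gencode gene (featureCounts), and deposited raw counts in a table of 52550 genes. The strand setting of counting and the Gencode release are not given in the sources used here, and 99.7% of the gene identifiers were in Gencode M21 (mm10), from which lengths and positions were taken. Of 21950 protein-coding genes, 15885 passed the edgeR filter by expression. TMM factors and quasi-likelihood F-tests (edgeR 4.0.16, R 4.3.3, limma 3.58.1, 8 residual degrees of freedom) were fitted once over all 12 libraries, with Benjamini-Hochberg adjustment over all genes tested. A gene passed at an adjusted p below 0.05 and a log2 fold change beyond 0.5. All 9 genes passed the filter. CPM and RPKM are TMM-normalized. Transcript words of 50 bases were compared on either strand. Alternatives were other size factors, DESeq2 1.42.0, limma-voom, no filter, all annotated genes, a test against a log2 fold change of 0.5 (glmTreat), the 6 libraries compared and leaving libraries out. The fit was tested on simulated data. Of 12 pairs of libraries within groups, 0 were identical, and the counts of each pair differed beyond Poisson error (chi-square at least 14.55 times its degrees of freedom). The methods give 3 animals per group, and p-values measure the spread between these libraries. Intervals and the 3-count limit cover their stated error only. The genes, pathway list and marker lists were chosen with earlier results of these data known. Named pathway genes were the one with the smallest p in *Adm*+/- per role plus *Aldh1a7*, *Lrat*, *Rdh10*, *Crabp2*, *Cyp26a1*, *Rara* and *Rxra*. Others named passed the test and were picked after their values were seen. Some genes of the pathway list are counted but not reported by name here.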

Additional observations from a re-analysis of the deposited data

How the results depend on the processing

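No paired analysis was possible because the labels number the libraries 1 to 12 and no number is shared between groups. Leaving out both WT LPS libraries with squamous transcripts was chosen after seeing the data. Both PBS libraries that stood apart were likewise picked by their values in these data.

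In *Adm*+/- mice *Stra6*, *Aldh1a3* and *Crabp1* passed under every alternative run. Of 9 genes, 5 to 6 passed when 1 library was left out, and 3 in the glmTreat fit, where *Aldh1a1* (edgeR adjusted p = 0.636), *Rarb* (0.0814) and *Cyp26b1* (0.0988) did not. With glmTreat, 11 other pathway genes and 1695 of all genes passed in *Adm*+/-, and 7 and 1001 in WT. With only the 6 libraries compared, 6 other pathway genes and 1152 of all genes passed in WT, and without both squamous libraries 6 and 759. Leaving out 1 library gave 2 to 3 of the 9, 9 to 16 other pathway genes and 1443 (without WT LPS library 9) to 3074 of all genes in WT. In *Adm*+/- it gave 16 to 22 and 3033 to 4503.

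Under LPS the genotypes differed in 1 of 9 genes with RLE size factors, with limma-voom, with no filter and with only the 6 libraries compared. They differed in 0 with all annotated genes, with glmTreat and without both squamous libraries, and in 0 to 2 when 1 library was left out. Other pathway genes came to 5 with DESeq2, to 1 with limma-voom, all annotated genes, glmTreat, only the 6 libraries compared and without both squamous libraries, and to 0 to 4 when 1 library was left out. All genes came to 803 with DESeq2, 133 with glmTreat, 548 without both PBS libraries that stood apart, 107 without both squamous libraries and 81 (without *Adm*+/- LPS library 1) to 573 (without WT PBS library 5) when 1 library was left out. For the interaction, DESeq2 passed 168 genes and 1 other pathway gene, limma-voom 1 gene and glmTreat 13, and leaving out 1 library gave 5 to 65 genes and 0 to 1 other pathway genes.

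Signs turned in differences that did not pass. For LPS in WT, *Rbp4* (-0.33) was 0.0933 without WT PBS library 5 and without both PBS libraries, and *Dhrs3* (0.0053) lay between -0.0804 and 0.10 without 1 library, at -0.027 with all annotated genes and at -0.21 without both squamous libraries. For the interaction, *Rbp4* (0.10) was -0.38 without both PBS libraries that stood apart, -0.13 without both squamous libraries and -0.32 to 0.29 without 1 library, turning without WT PBS library 5, WT LPS library 9 or *Adm*+/- LPS library 1. *Cyp26b1* (-0.08) was 0.0049 with limma-voom, 0.0557 without both PBS libraries and -0.34 to 0.10 without 1 library, turning without WT PBS library 3, WT LPS library 10 or 11 or *Adm*+/- PBS library 6. Between the genotypes in PBS, without both PBS libraries *Crabp1* was -0.0485, *Rarb* 0.0196, *Rbp4* 0.11 and *Stra6* 0.12, and without 1 library *Rbp4* was -0.57 to 0.0442 and *Stra6* -0.32 to 0.10, both turning without WT PBS library 5. Under LPS, without 1 library *Aldh1a1* was -0.17 to 0.0781 (turning without WT LPS library 10 or *Adm*+/- LPS library 1) and *Aldh1a3* -0.61 to 0.0555 (turning without WT LPS library 9). The cause of these changes was not tested.

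With 0 to 88 counts per library for *Crabp1* and groups of 3, the limits of precision are those of the intervals given.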
